A study of Homo sapiens with 6 samples.

Results

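The aminoacyl-tRNA synthetases and 3 scaffold proteins that bind them were described in OVCA433, a human ovarian cancer cell line, in 2 groups that the labels call sinc and si. Members were the rows of the count table whose symbol was 1 letter followed by ARS, with or without a final 1 or 2, together with EPRS, EARS2, FARSA, FARSB, AIMP1, AIMP2 and EEF1E1. This rule found 40 genes of 26699 rows. By compartment they were 18 cytosolic synthetases, 17 mitochondrial synthetases, 2 genes that serve both compartments (GARS and KARS) and 3 scaffold proteins. The table uses older symbols, in which most cytosolic genes lack the final 1 of the approved name (TARS for TARS1).

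The study compared 3 sinc with 3 si libraries of poly(A) RNA, and its design text names SOGA1 for both groups. The labels give the genotypes OVSOGA1sinc and OVSOGA1si and do not spell the abbreviations out. No agent, dose or time is given. Whether replicates were separate cultures is not stated either, and every p-value rests on the spread among the 6 libraries, which may be technical. SOGA1 itself was at 64.5, 59.7 and 63.9 CPM (counts scaled to a common library size) in sinc replicates 1 to 3 and at 25.3, 27.2 and 20.2 CPM in si, so si held 38.7% of the sinc level.

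Libraries held between 33778707 and 44130601 counts. Among markers of serous ovarian carcinoma, PAX8 (688 ± 22.1 CPM in sinc, SD, n = 3), KRT7 (2298 ± 105 CPM) and MSLN (156 ± 5.90 CPM) were abundant. So were KRT8 (2208 CPM) and KRT18 (1915 CPM). MUC1 (3.52 ± 0.494 CPM), EPCAM (1.22 ± 0.247 CPM) and WFDC2 (0.0847 ± 0.0913 CPM) were low in sinc. WT1 had at most 6 counts in a library, and MUC16 and CDH1 had no row in the count table under these symbols. Of 10 markers of other cell types 5 could be tested. COL1A1 was higher in si (103 against 131 CPM, log2 fold change 0.34, SE 0.061, edgeR quasi-likelihood adjusted p = 0.0172), CD68 was at 21.7 CPM and CDH5 at 11.3 CPM in sinc, and CD3E, PECAM1 and DCN had at most 6 counts in any library. The part of these genes in the results below was not tested.

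Aminoacyl-tRNA synthetases join each amino acid to its own tRNAs, which elongation factors then carry to the ribosome. Human cells keep a cytosolic set and a mitochondrial set, mostly encoded by separate nuclear genes, and both are made in the cytosol. Several cytosolic enzymes and the scaffolds AIMP1, AIMP2 and EEF1E1 form the multisynthetase complex. When amino acids run short, the transcription factor ATF4 is known to raise the transcription of many cytosolic synthetase genes through a C/EBP-ATF response element.

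The letters TGATGNAA, in which N is any base, resemble the core of that element and were searched on both strands in RefSeq promoters (GRCh38.p14) from 250 bases before to 50 bases after the gene start. Promoters were found for 33 of the 40 genes, and 8 of these held the motif (24.2%), against 2.66% of the 11145 tested genes with a promoter and 3.62% of all 35116 promoters in the table. The 8 comprise 6 of 14 cytosolic genes, 1 of 2 dual-compartment genes, 1 of 14 mitochondrial genes and 0 of 3 scaffolds. All 8 are shown because the motif was found in more cytosolic than mitochondrial promoters. Each is on the gene's own strand, with the motif or its reverse complement in capitals.
AARS: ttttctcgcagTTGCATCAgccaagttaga
CARS: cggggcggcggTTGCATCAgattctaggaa
GARS: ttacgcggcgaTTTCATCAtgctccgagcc
IARS: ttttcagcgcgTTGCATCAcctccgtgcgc
MARS: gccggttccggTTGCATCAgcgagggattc
NARS: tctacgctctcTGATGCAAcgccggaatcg
TARS: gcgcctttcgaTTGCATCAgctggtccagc
YARS2: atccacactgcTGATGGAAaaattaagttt

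The windows lie at chr16:70289675-70289704 (AARS, minus strand), chr11:3057407-3057436 (CARS, minus), chr7:30594834-30594863 (GARS, plus), chr9:92293692-92293721 (IARS, minus), chr12:57488053-57488082 (MARS, plus), chr18:57621804-57621833 (NARS, minus), chr5:33440956-33440985 (TARS, plus) and chr12:32756076-32756105 (YARS2, minus). Of the 8, edgeR called TARS lower in si, beside 6.00% of all genes tested. The median log2 fold change was -0.163 with the motif and 0.047 over the members with a promoter but no motif. Neither median is corrected for transcript length or GC content. Across all genes the log2 fold change moved with both (Spearman's rho -0.47 and 0.49), and their part in this difference was not tested. A match of letters is a description and shows no binding.

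All 40 genes passed the filter on low counts. With the threshold at an adjusted p of 0.05 over 15562 genes, 4 of them were lower in si (10%, against 6.00% of all genes tested) and 1 was higher (2.50%, against 4.14%). The 4 lower genes were LARS2, FARSB, EPRS and TARS, and the higher gene was SARS. In either direction 12.5% of the members were called, against 10.1% of all genes. DESeq2 called 10 members (8 lower, 2 higher), against 25.8% of the genes it gave an adjusted p (14.3% lower, 11.5% higher). The median log2 fold change (si minus sinc) was -0.036 over the 40 genes and 0.0058 over all genes tested. In 17 genes (42.5%, against 34.9% of all genes) the groups did not overlap, with si below sinc in 11 (27.5%, against 16.8%) and above in 6 (15.0%, against 18.1%).

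**Figure D1:**
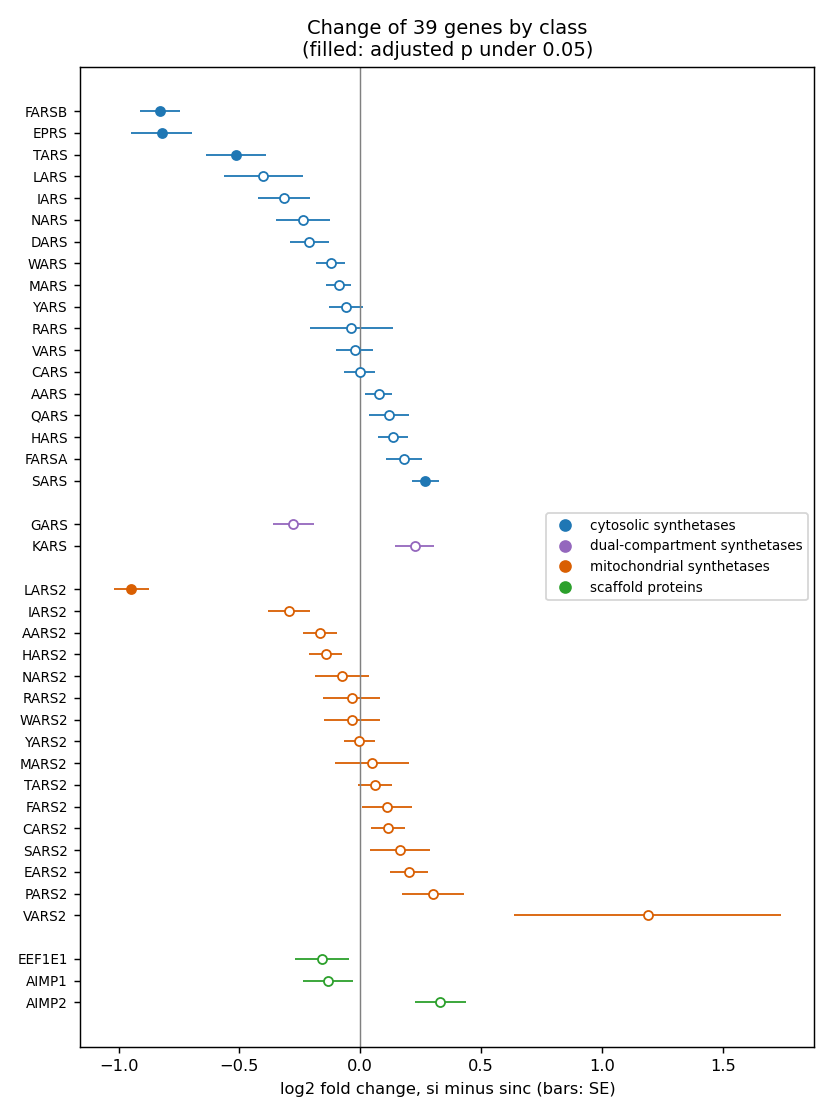
Log2 fold change (si minus sinc) of 39 of the 40 genes on the x axis, grouped by class, with bars for the standard error and filled points for genes with an edgeR adjusted p under 0.05. LARS2 (-0.95), FARSB (-0.83) and EPRS (-0.82) lie farthest to the left, and VARS2 (1.19) has the widest bar.

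LARS2, the mitochondrial leucyl-tRNA synthetase, is encoded at chr3:45388506-45549421 on the plus strand (GENCODE 29, GRCh38). It stood at 58.7, 58.6 and 61.9 CPM in sinc replicates 1 to 3 and at 29.97, 29.7 and 33.3 CPM in si. All si libraries lay below all sinc libraries, and the gap was far wider than the spread within either group. The log2 fold change was -0.95 (SE 0.073, edgeR adjusted p = 0.000751), and si held 51.9% of the sinc level. The call held when any 1 of the 6 libraries was left out.

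FARSB encodes the beta subunit of the cytosolic phenylalanyl-tRNA synthetase, in which it joins the alpha subunit, from FARSA, in equal number. FARSB (chr2:222570536-222656337, minus strand) was at 83.7, 85.2 and 82.6 CPM in sinc and at 47.5, 42.1 and 52.0 CPM in si. The sinc libraries lay close together and all si libraries lay below them. The log2 fold change was -0.83 (SE 0.084, edgeR adjusted p = 0.00246), and this call too held without any 1 library. FARSA was at 156, 166 and 160 CPM in sinc and at 178, 169 and 200 CPM in si (log2 fold change 0.18, SE 0.074, edgeR adjusted p = 0.151). The ratio of FARSA to FARSB in counts per kilobase of transcript was 3.05, 3.18 and 3.16 in sinc and 6.13, 6.55 and 6.29 in si. Every si library lay far above every sinc library in this ratio, with means of 6.32 and 3.13. After correction for transcript length and GC content the log2 fold changes were 0.016 for FARSA and -0.58 for FARSB.

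EPRS encodes the enzyme that charges both glutamate and proline tRNAs in the cytosol and is part of the multisynthetase complex. EPRS (chr1:219968601-220046658, minus strand) was at 117, 99.8 and 120 CPM in sinc and at 51.4, 69.8 and 68.7 CPM in si. The lowest sinc library lay above the highest si library. The log2 fold change was -0.82 (SE 0.13, edgeR adjusted p = 0.0118). The call was lost without sinc replicate 1 (adjusted p = 0.0662) or sinc replicate 3 (adjusted p = 0.0564), with log2 fold changes of -0.79 and -0.77.

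TARS, the cytosolic threonyl-tRNA synthetase (chr5:33440696-33469539, plus strand), was at 314, 277 and 341 CPM in sinc and at 193, 200 and 259 CPM in si. Si replicate 3 lay nearest to the sinc libraries, and the groups did not overlap. The log2 fold change was -0.51 (SE 0.13, edgeR adjusted p = 0.0411). The call held without si replicate 3 (-0.67, adjusted p = 0.0133) and was lost without sinc replicate 1 (adjusted p = 0.147), sinc replicate 2 (0.0710), sinc replicate 3 (0.137), si replicate 1 (0.149) or si replicate 2 (0.0541).

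SARS, the cytosolic seryl-tRNA synthetase (chr1:109213918-109238169, plus strand), was the only member called higher. It was at 412, 438 and 430 CPM in sinc and at 505, 506 and 532 CPM in si, with every si library above every sinc library. The log2 fold change was 0.27 (SE 0.054, edgeR adjusted p = 0.0245). The call held without si replicate 2 (adjusted p = 0.0296) or si replicate 3 (0.0447), and was lost without si replicate 1 (0.0986), sinc replicate 1 (0.115), sinc replicate 2 (0.0669) or sinc replicate 3 (0.0908).

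**Figure D2:**
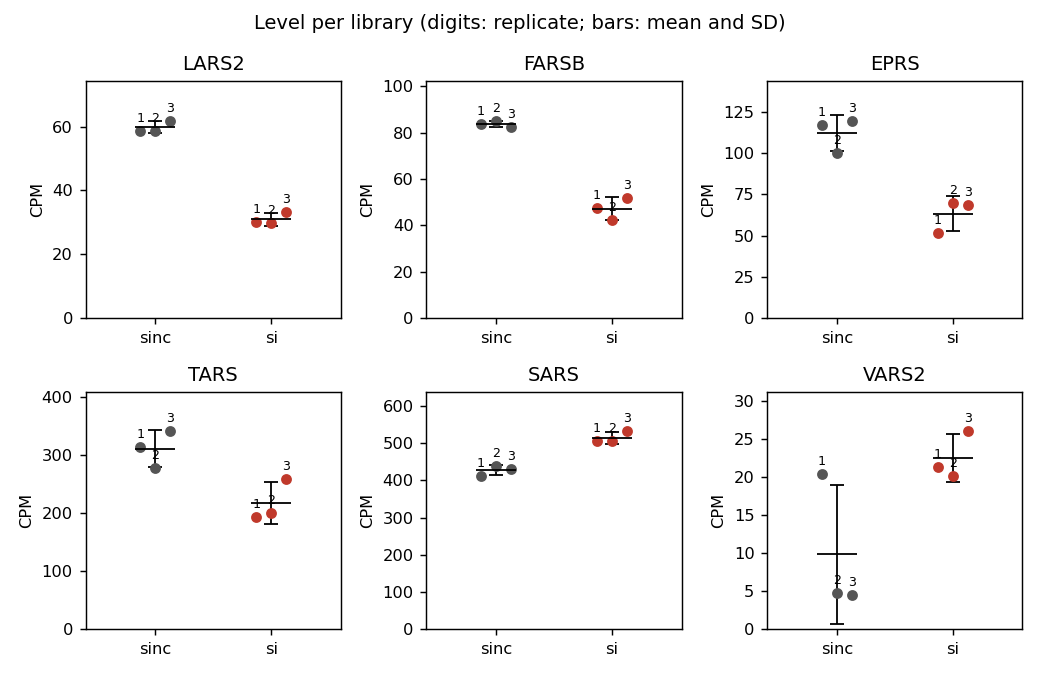
CPM on the y axis for LARS2, FARSB, EPRS, TARS, SARS and VARS2 in each library, with digits for the replicate and bars for the mean and SD of 3 libraries. The groups are separate in the first 5 genes, while VARS2 in sinc replicate 1 (20.4 CPM) lies among the si libraries.

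The cytosolic and mitochondrial sets were compared next. Of 18 cytosolic genes 3 were lower and 1 higher, and of 17 mitochondrial genes 1 was lower and 0 higher, where 6.00% of all genes tested were lower and 4.14% higher. At an unadjusted edgeR p under 0.05, 6 cytosolic genes were lower and 2 higher, and 3 mitochondrial genes were lower and 2 higher. Of all genes tested 15.0% were lower and 14.1% higher at that p. Among the cytosolic genes DESeq2 called EPRS, FARSB, IARS, LARS and TARS lower and SARS higher. It called LARS2 and IARS2 lower and 0 mitochondrial genes higher. Of the genes DESeq2 gave an adjusted p, 14.3% were lower and 11.5% higher. The median log2 fold change was -0.074 over the cytosolic and -0.005 over the mitochondrial genes, with negative values in 13 of 18 and 9 of 17. Per library, the mean log2 CPM of the cytosolic genes minus that of the mitochondrial genes was 2.51, 2.56 and 2.66 in sinc and 2.31, 2.38 and 2.41 in si. Every si library lay below every sinc library. Without VARS2 the values were 2.47, 2.39 and 2.49 in sinc and 2.28, 2.35 and 2.39 in si, so that sinc replicate 2 met si replicate 3. The mean log2 fold change of the cytosolic genes minus that of the mitochondrial genes was -0.18, and -0.11 after the length and GC correction or without VARS2. The cytosolic genes took 0.417 ± 0.0122% of all counts in sinc and 0.391 ± 0.0183% in si, and the mitochondrial genes 0.0701 ± 0.00101% and 0.0666 ± 0.00224% (SD, n = 3 each).

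VARS2, the mitochondrial valyl-tRNA synthetase (chr6:30908242-30926459, plus strand), was at 20.4, 4.69 and 4.42 CPM in sinc and at 21.3, 20.1 and 26.0 CPM in si. Sinc replicate 1 lay within the si range and the other two sinc libraries far below it. The log2 fold change was 1.19 (SE 0.55, edgeR adjusted p = 0.200), and 2.30 without sinc replicate 1 (adjusted p = 0.00530). VARS2 overlaps GTF2H4, a gene of the transcription factor TFIIH, on the same strand. GTF2H4 had 1421, 924 and 1086 counts in sinc and 1537, 1602 and 1206 in si, where VARS2 had 842, 207 and 170 and then 742, 804 and 882. VARS2 took 37.2, 18.3 and 13.5% of the summed counts in sinc and 32.6, 33.4 and 42.2% in si. With both rows summed the log2 fold change was 0.72 (edgeR adjusted p = 0.0965), an alternative chosen after the data were seen, and the part of the counting in this gene's values was not tested.

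Each of the 5 called genes has a partner that serves the same amino acid in the other compartment, and none of these 6 partners was called by edgeR, although 3 (LARS, EARS2 and PARS2) had an unadjusted p under 0.05 and DESeq2 called LARS. The difference in change between partners was not tested. LARS, the cytosolic partner of LARS2 and a known leucine sensor for mTORC1, was at 176, 164 and 205 CPM in sinc and at 114, 124 and 175 CPM in si. Its groups overlapped through si replicate 3, and its log2 fold change was -0.40 (SE 0.16, edgeR adjusted p = 0.149), or -0.060 with the length and GC correction. The ratio of LARS to LARS2 per kilobase was 3.02 ± 0.258 in sinc and 4.39 ± 0.752 in si (SD, n = 3 each), with the groups apart.

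FARS2, the single-chain mitochondrial phenylalanyl-tRNA synthetase, was at 21.3, 25.2 and 21.1 CPM in sinc and at 24.7, 25.5 and 22.7 CPM in si, with overlapping groups. TARS2 was at 71.3, 69.9 and 74.1 CPM in sinc and at 80.5, 70.2 and 74.0 CPM in si, also overlapping. Their log2 fold changes were 0.11 (SE 0.10) and 0.062 (SE 0.070). Per kilobase the ratio of FARSB to FARS2 was 1.88 ± 0.159 in sinc and 0.982 ± 0.160 in si, and that of TARS to TARS2 was 4.67 ± 0.348 and 3.15 ± 0.598. With the length and GC correction the log2 fold changes were -0.58 for FARSB, -0.038 for FARS2, -0.40 for TARS and -0.012 for TARS2.

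EPRS has 2 mitochondrial partners, EARS2 for glutamate and PARS2 for proline. EARS2 was at 37.9, 42.8 and 38.9 CPM in sinc and at 48.3, 46.0 and 43.1 CPM in si, so that si lay just above sinc (log2 fold change 0.20, SE 0.078, edgeR adjusted p = 0.136). PARS2 was at 14.7, 17.7 and 15.5 CPM in sinc and at 19.9, 17.3 and 21.8 CPM in si, with overlap (0.30, SE 0.13, adjusted p = 0.165). The ratio of EPRS to EARS2 per kilobase was 0.965 ± 0.148 in sinc and 0.474 ± 0.0973 in si. With the length and GC correction the log2 fold changes were -0.51 for EPRS and 0.03 for EARS2. SARS2, the partner of SARS, was at 20.7, 21.1 and 20.3 CPM in sinc and at 27.4, 19.9 and 22.3 CPM in si, and its groups overlapped.

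**Figure D3:**
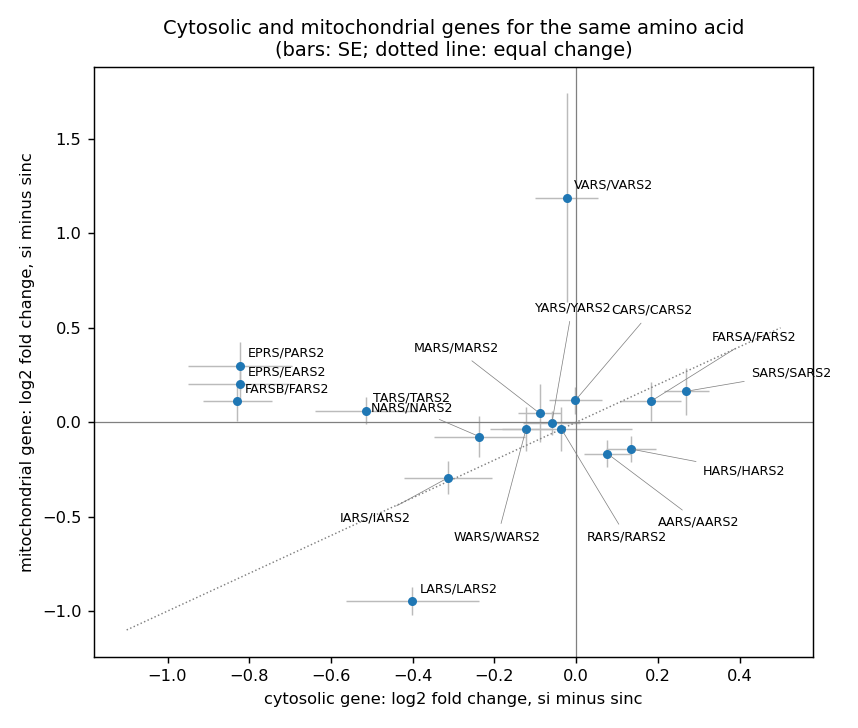
Log2 fold change (si minus sinc) of the cytosolic gene on the x axis and of the mitochondrial gene for the same amino acid on the y axis, with bars for standard errors and a dotted line for equal change. EPRS and FARSB lie far left at small positive mitochondrial values, and LARS with LARS2 lies lowest, at -0.40 and -0.95.

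The most abundant members per kilobase in sinc were SARS (226.8 ± 7.27 CPM per kilobase, SD, n = 3), MARS (181.4 ± 4.22), AARS (154.2 ± 4.29), YARS (134.1 ± 7.46) and TARS (123.1 ± 12.7). YARS and TARS, and TARS and KARS (115.2 ± 3.06), lay within the spread of each other. MARS, the methionyl-tRNA synthetase, was at 514, 538 and 528 CPM in sinc and at 510, 494 and 482 CPM in si. The si libraries lay just below the sinc libraries, with a log2 fold change of -0.089 (SE 0.052, edgeR adjusted p = 0.301).

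Both dual-compartment genes had separate groups, in opposite directions, as 34.9% of all genes had in either direction. Neither was called by edgeR on all 6 libraries without the length and GC correction. GARS was called lower by DESeq2 (adjusted p = 0.0202) and without si replicate 3 (edgeR adjusted p = 0.0374). KARS was called higher after the length and GC correction (edgeR adjusted p = 0.0486). GARS, for glycine, was at 153, 155 and 167 CPM in sinc and at 131, 117 and 144 CPM in si (log2 fold change -0.28, SE 0.085, edgeR adjusted p = 0.0755). KARS, for lysine, was at 271, 285 and 281 CPM in sinc and at 315, 297 and 366 CPM in si (0.22, SE 0.082, adjusted p = 0.118). Of the mitochondrial genes the most abundant per kilobase was CARS2 (59.0 ± 3.83), for cysteine, which lay above its cytosolic partner CARS (42.2 ± 1.23). CARS2 was at 105, 119 and 109 CPM in sinc and at 113, 122 and 125 CPM in si, and its groups overlapped.

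The multisynthetase complex has 11 members here, 8 enzymes and the 3 scaffolds. By edgeR EPRS was lower and 10 were not called, beside 6.00% of all genes lower and 10.1% called in either direction. The median log2 fold change was -0.134. DESeq2 called EPRS, IARS and LARS lower and AIMP2 higher, beside 14.3% and 11.5% of the genes it gave an adjusted p. AIMP2, a scaffold subunit, was at 40.4, 45.4 and 37.5 CPM in sinc and at 49.0, 47.9 and 58.3 CPM in si (0.33, SE 0.10, edgeR adjusted p = 0.0828). EEF1E1, known also as AIMP3, was at 13.4, 13.6 and 15.1 CPM in sinc and at 12.3, 12.6 and 12.8 CPM in si (-0.16, SE 0.11, adjusted p = 0.387). The si libraries thus lay above sinc for AIMP2 and below it for EEF1E1, while AIMP1 overlapped. By catalytic fold, with EPRS set aside because it joins an enzyme of each class, 1 of 18 class I enzymes and 3 of 18 class II enzymes were called, beside 10.1% of all genes, with medians of -0.035 and -0.007.

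Si replicate 3 stood above the other two si libraries in several cytosolic genes. LARS, IARS and NARS had si replicate 3 at 175, 206 and 93.9 CPM, within the sinc range, against 114 to 124, 160 to 163 and 73.7 to 76.9 CPM in the other two. RARS was at 92.5, 82.4 and 89.8 CPM in sinc and at 72.4, 71.7 and 114 CPM in si, so that si replicate 3 lay above every sinc library and the other two si libraries below them. Without si replicate 3, 10 of the 40 genes were called (9 lower, including DARS, GARS, IARS, LARS and RARS beside the 4 above, and SARS higher), against 9.16% of all genes tested then (5.98% lower, 3.18% higher). Without sinc replicate 1 it was 3, with FARSB and LARS2 lower and VARS2 higher, against 1.28% of all genes (1.08% lower, 0.195% higher). Over the 40 genes the share of all counts was 0.530, 0.532 and 0.556% in sinc and 0.498, 0.495 and 0.542% in si, so that si replicate 3 lay within the sinc range.

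Changes also moved with the composition of the transcript. Across the 40 genes Spearman's rho of the log2 fold change was 0.60 with GC content and -0.53 with length, and across 12829 genes 0.49 and -0.47, values across genes of the same 6 libraries that carry no p. Of the 20 members with lower GC content (36.3 to 50.1%) 18 had negative values and the median was -0.151, beside -0.186 over all genes at or below that GC content. Of the 20 with higher GC content 13 had positive values and the median was 0.113, beside 0.116. With each library corrected for length and GC content, LARS2 (-0.83, edgeR adjusted p = 0.00133), FARSB (-0.58, 0.0205) and EPRS (-0.51, 0.0311) were still called lower. TARS (-0.40, adjusted p = 0.0691) and SARS (0.18, adjusted p = 0.0993) were not, and KARS (0.28, adjusted p = 0.0486) was called higher. These 4 of 40 stand beside 4.95% of the 12829 genes in that fit (2.84% lower, 2.11% higher). Among members that were not called, IARS went from -0.31 to -0.025, IARS2 from -0.29 to -0.083 and AIMP2 from 0.33 to 0.19, and the sign of 9 turned.

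**Figure D4:**
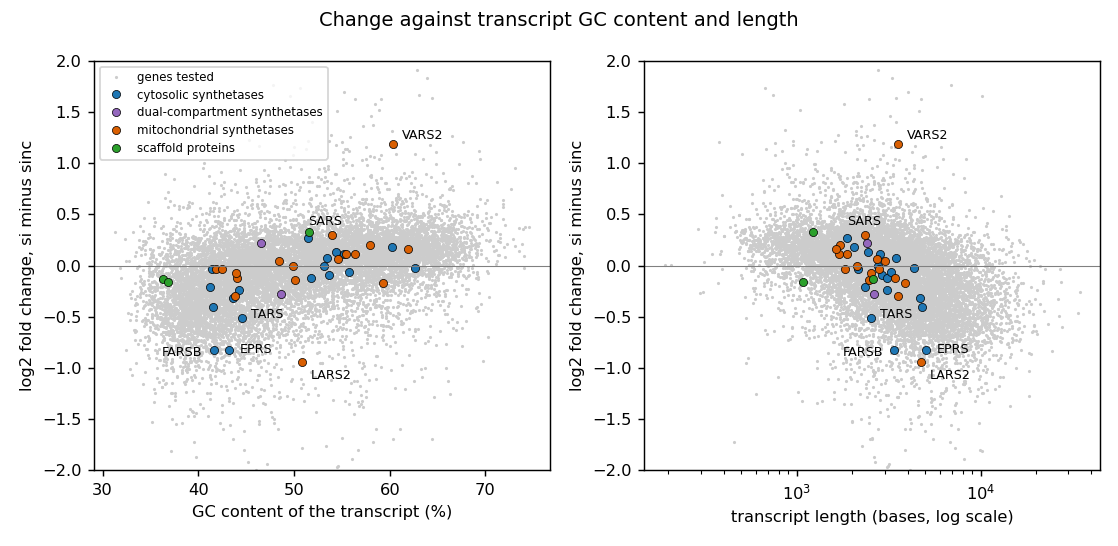
Log2 fold change (si minus sinc) against GC content of the transcript (left, percent) and transcript length (right, bases, log axis), with the 40 genes in colour by class over all tested genes with a coding transcript in grey. The y axis ends at -2 and 2, which leaves 24 genes out, and VARS2 (1.19) and LARS2 (-0.95) are the highest and lowest members.

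Matches to SOGA1 were also counted. A stretch of 21 bases in exon 5 of 15 of the SOGA1 coding sequence, picked in an earlier look at these data and so no independent evidence, ends in TGAAGTA. Those 7 bases stand in the 3′ UTR of 4 members (10% of 40), LARS2, FARSB, NARS and WARS2, against 11.4% of 12828 genes. The median log2 fold change was -0.31 over the 1465 genes that hold them and 0.016 over the rest. These medians are not corrected for transcript length or GC content. Across all genes the log2 fold change moved with both (rho -0.47 and 0.49), and their part in this difference was not tested. A run of at least 11 bases of the stretch is found in FARSB, AARS2, DARS and MARS, also 10% of the members, against 8.96% of the 12828 genes (median log2 fold change -0.059). Both shares are close to those of all genes. The sites in LARS2 and FARSB, the members with the smallest adjusted p, are shown beside the stretch (GENCODE 29, GRCh38, each on its gene's strand, with the matching bases in capitals).
SOGA1 stretch, last 7 bases in capitals: gaaggaggagctgcTGAAGTA
LARS2 3′ UTR: tgccatttttcTGAAGTAgcctcacatgtg
FARSB 3′ UTR: ccaggtactatTGAAGTAataagaaatatg
FARSB coding sequence, across exons 9 and 10 of 17: tacggtcgaAGCTGCTGAAGTggtttttcc

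They lie at chr20:36816186-36816206 (minus strand), chr3:45548742-45548771 (plus), chr2:222570869-222570898 (minus) and chr2:222628862-222630115 (minus), the last with an intron inside it. NARS and WARS2, which hold the same 7 bases, had log2 fold changes of -0.24 and -0.034 and were not called. EPRS, TARS and SARS hold no copy in the 3′ UTR. No reagent sequence is given in the sources used here, and the part of these matches in the values was not tested.

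Genes that act before and after the synthetases were counted from fixed lists, with the same edgeR test. Of 29 genes of tRNA maturation and export, 2 were lower and 4 higher, beside 6.00% and 4.14% of all genes, and the median log2 fold change was 0.096. FAM98B, a subunit of the tRNA ligase complex, was at 13.9, 13.8 and 15.0 CPM in sinc and at 7.79, 9.12 and 7.82 CPM in si (-0.79, SE 0.13, adjusted p = 0.0123). XPOT, the export receptor of tRNA, was at 131, 107 and 124 CPM in sinc and at 67.0, 79.5 and 85.1 CPM in si (-0.64, SE 0.11, adjusted p = 0.0154). In both genes all si libraries lay below all sinc libraries. The higher genes were KIAA0391 (0.57), the protein-only nuclease of mitochondrial RNase P, TSEN34 (0.30), of the tRNA splicing endonuclease, POP4 (0.29), of RNase P, and HSD17B10 (0.27), a subunit of mitochondrial RNase P. TRMT10C, also a subunit of mitochondrial RNase P, went the other way and was not called (-0.41, SE 0.16, edgeR adjusted p = 0.145). Its si libraries all lay below its sinc libraries. Of the 6 fits that left 1 library out, FAM98B, XPOT and KIAA0391 were each called in 3, TSEN34 and POP4 in 1 and HSD17B10 in 0.

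Of 30 genes of the amino acid response 2 were lower and 4 higher, beside the same 6.00% and 4.14%, with a median of 0.042. SLC3A2, the heavy chain of amino acid transporters, was at 475, 493 and 451 CPM in sinc and at 260, 254 and 167 CPM in si (-1.06, SE 0.16, edgeR adjusted p = 0.00978). SLC38A2, a transporter of neutral amino acids, was lower (log2 fold change -0.57, SE 0.13, adjusted p = 0.0372), a call made in 1 of the 6 fits that left a library out, against 5 for SLC3A2. SLC7A11, the cystine transporter that pairs with SLC3A2, had the lowest value of the list (-1.20, SE 0.47, adjusted p = 0.136) and overlapping groups. ATF4 was at 642, 652 and 604 CPM in sinc and at 740, 737 and 728 CPM in si (0.22, SE 0.053, adjusted p = 0.0415), a call lost whichever library was left out. CEBPB (0.61, adjusted p = 0.0180), TRIB3 (0.43, 0.0352) and SESN2 (0.34, 0.0267) were higher too, each in 2 of the 6 fits that left a library out. Among the 8 members with the promoter motif shown above, edgeR called 1 lower and 0 higher, beside the same 6.00% and 4.14% of all genes.

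Of 7 elongation factor genes EEF1B2, a subunit of the exchange factor for the carrier of charged tRNA, was higher (382 ± 18.0 against 455 ± 12.1 CPM, SD, n = 3 in each group, with an edgeR adjusted p of 0.0348 and a log2 fold change of 0.25), and the list's median was 0.085. The call was made in 1 of the 6 fits that left a library out. Of all genes tested 4.14% were called higher. None of 6 genes of tRNA-dependent amidation, formylation and selenocysteine synthesis was called by edgeR, beside 10.1% of all genes tested. In that list 1 gene was upward at an unadjusted p under 0.05, beside 14.1% of all genes, and the median was 0.103. Its most abundant genes per kilobase were GATC (0.064) and GATB (0.24, adjusted p = 0.0521), subunits of the mitochondrial amidotransferase. Of 5 genes listed as editing deacylases 0 were called by edgeR, beside the same 10.1%. At an unadjusted p under 0.05 there were 0, beside 15.0% of all genes lower and 14.1% higher. The most abundant there per kilobase were AARSD1 (0.12), which clears wrongly charged alanine tRNA, and DTD1 (0.021), which removes D-amino acids from tRNA. FAM213A, also on the list (-0.11), encodes a peroxiredoxin-like protein and is not a known deacylase.

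**Figure D5:**
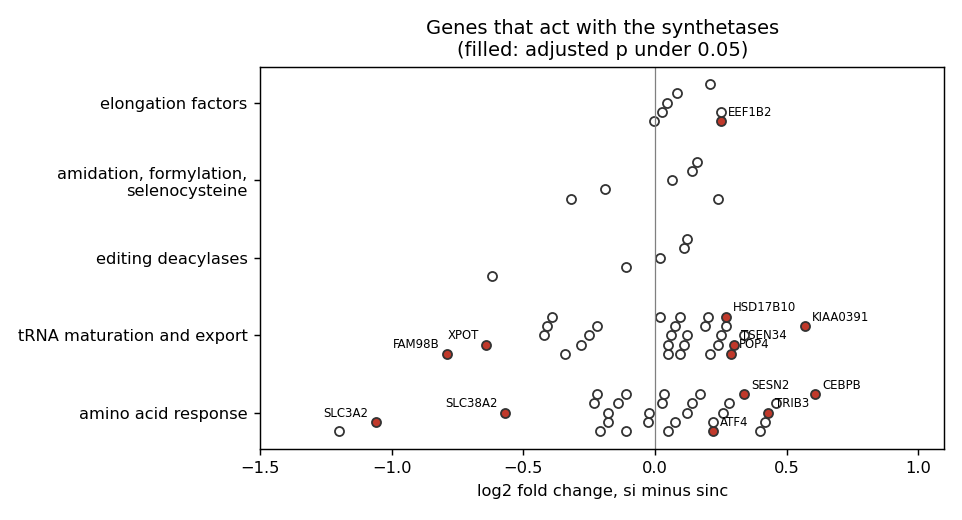
Log2 fold change (si minus sinc) on the x axis of the genes in 5 lists that act with the synthetases, 1 row a list, with filled points for an edgeR adjusted p under 0.05. Among filled points SLC3A2 (-1.06), FAM98B (-0.79) and XPOT (-0.64) lie to the left, with the open point of SLC7A11 (-1.20) beyond them, and CEBPB (0.61) and KIAA0391 (0.57) to the right.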

How the data were processed

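Libraries of poly(A) RNA kept the strand through dUTP in the second strand, per the labels' protocols. The authors deposited raw counts per gene, and CASAVA and StringTie are named in the submitters' processing notes. Aligner, build, annotation and the use of strand are each not given in the sources used here, so reads of overlapping genes may have been split: of the 40 members, 14 overlap a coding gene that also has a row in the table on the opposite strand and 3 on the same strand. Symbols that were placeholders (773 rows) or dates (10 rows) took the name of the same gene ID.

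The test on the counts was that of edgeR 4.0.16 under R 4.3.3 (filterByExpr, minimum count 10, TMM scaling, glmQLFit and glmQLFTest with group as the only term, two-sided, Benjamini-Hochberg adjustment over 15562 genes, threshold 0.05). Each standard error is the size of the log2 fold change divided by the root of its F statistic. Lengths, GC content and 3′ UTRs are those of the GENCODE 29 transcript with the longest coding sequence. Per-library values name the genes past the threshold, the most abundant of each class, and their partners in the other compartment. For other lists up to 4 called genes were named, or else the 2 most abundant. Outside this rule FARSA, VARS2, IARS, NARS, RARS, KIAA0391, POP4, TRMT10C, SLC38A2, SLC7A11, FAM213A and ATF4 were given values after these were seen. Of the mitochondrial members 1 is counted in the totals and is not reported singly here. Members and lists were chosen with earlier results of these data known. Alternatives were DESeq2 1.42.0, limma-voom 3.58.1, other scalings and filters, a replicate block, a length and GC correction, and leaving out each library.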

Additional observations from a re-analysis of the deposited data

How the results depend on the processing

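The common biological coefficient of variation was 18.8%, which limits what 3 libraries a group can show. The counts of called members were 5 in all, 4 lower and 1 higher. DESeq2 called 10 members (8 lower, 2 higher; 25.8% of its 11333 genes with an adjusted p), with GARS, IARS, IARS2, LARS and AIMP2 added. Without a filter 3 were called and 0 higher at the adjusted threshold in edgeR, while TARS (adjusted p = 0.0640) and SARS (0.0801) passed at an unadjusted p under 0.05. Leaving out 1 library in turn gave 2 to 10 called, 2 to 9 lower and 0 to 1 higher, and medians of -0.093 to 0.046 over the mitochondrial genes. The mean log2 fold change of the cytosolic genes minus that of the mitochondrial genes was -0.18, and -0.11 both without VARS2 (chosen after the data were seen) and after the length and GC correction. RLE, upper-quartile and total-count scaling, limma-voom and a minimum count of 50 called the same 5 genes.

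Over all genes tested, deviations of same-numbered libraries from their group means had correlations of -0.179, -0.0348 and 0.154. Sinc replicate 1 correlated best with si replicate 2 (0.319). With 3 libraries a group, whose deviations sum to 0, these values cannot decide whether the numbers pair the samples. With the replicate block 4 were called and 0 higher (2.81% of all genes were called), SARS being lost (edgeR adjusted p = 0.0799, unadjusted p = 0.00526). With the block and the length and GC correction together 3 were called and 0 higher, and FARSB had an adjusted p of 0.0560.

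Signs turned only in members that were not called with all 6 libraries. CARS and YARS2 became 0.021 and 0.018 under upper-quartile scaling, and 0.0068 and 0.0044 on the genes with a coding transcript. The length and GC correction gave AIMP1 0.13, CARS2 -0.027, FARS2 -0.038, NARS2 0.052, RARS 0.12, RARS2 0.095, SARS2 -0.052, TARS2 -0.012 and WARS2 0.15, and with the replicate block these were 0.13, -0.03, -0.038, 0.053, 0.094, 0.088, -0.058, -0.012 and 0.15. Leaving out 1 library in turn gave ranges that crossed 0 for CARS (-0.044 to 0.036), YARS2 (-0.027 to 0.015), VARS (-0.082 to 0.043), RARS (-0.3 to 0.077), RARS2 (-0.15 to 0.046), WARS2 (-0.12 to 0.019) and MARS2 (-0.093 to 0.15). The cause was not tested for any of these.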
